A study of Arabidopsis thaliana with 4 samples.

Results

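Anthocyanins are the red to purple pigments of leaves and stems, and the genes described here make and decorate them. They are DFR, UF3GT, UGT75C1 and 5MAT, chosen as anthocyanin synthesis and decoration genes by name, each through the single-gene probe set with the highest mean over all arrays. They are 4 of the 13356 genes that have such a probe set. The array annotation lists UGT75C1 only by its locus, AT4G14090, and 5MAT as AT5MAT, so these were matched by locus (AT4G14090 and AT3G29590). DFR is AT5G42800 and UF3GT is AT5G54060, and each of the 4 genes has 1 probe set.

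Whole seedlings of Arabidopsis thaliana were compared at 7 days of age in 4 groups. They were the emf2 mutant carrying 35S::BoEMF2.1 (rescued emf2), the emf2 mutant without it, the wild type carrying 35S::BoEMF2.1 (transWT) and the Columbia wild type (WT). EMF2 belongs to Polycomb repressive complex 2, which keeps developmental genes silent. BoEMF2.1, from Brassica oleracea, was named after it and is driven in most tissues by the viral 35S promoter. All groups grew on plates with 1.5% sucrose in short days (8 h light, 16 h dark) at 21 °C; both transgenic groups had hygromycin at 20 mg/mL, as the labels give it, and the other groups had none. The labels do not say which emf2 allele was used, or how many transformants or seedlings went into a sample. Each group was measured on 1 Affymetrix array, so the number of arrays limits the precision and no difference between 2 arrays has a replicate check.

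The anthocyanin route starts from the common flavonoid pathway. DFR, dihydroflavonol 4-reductase, reduces dihydroflavonols to leucoanthocyanidins and commits them to anthocyanins, or in the seed coat to proanthocyanidins. The pigment core is then glucosylated, xylosylated, acylated and malonylated in the cytosol before it is stored in the vacuole. UF3GT, also named UGT79B1, adds xylose to the 3-linked glucose of the anthocyanin. UGT75C1 adds glucose at the 5 position, and 5MAT attaches a malonyl group to that glucose. In seedlings the late genes of this route are known to be switched on by a complex of MYB, bHLH and WD40 proteins and to respond to light, sucrose and stress.

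Signals are MAS5 values on a linear scale, and a signal of 87.6, the 40th percentile of all probe sets other than controls, was taken as a floor for what counts as near background. Of 22746 such probe sets, 58.9% were above the floor in rescued emf2, 58.9% in emf2, 60.6% in transWT and 61.6% in WT. Poly-A control probe sets, 7 above the floor on every array, had a median of 2.38-fold in rescued emf2 over emf2, 1.92-fold in transWT over WT and 1.05-fold in emf2 over WT. Hybridization controls, 9 probe sets above the floor on every array, had medians of 1.27-fold, 1.22-fold and 1.10-fold in the same comparisons. Between both transgenic arrays, in rescued emf2 over transWT, the median was 1.635-fold for the poly-A controls and 1.02-fold for the hybridization controls. The whole-seedling label was checked with markers. All 7 green tissue genes and all 3 root genes were above the floor on every array, and none of the 3 anther, pollen and seed genes was above it on any.

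All 4 anthocyanin genes were brightest on the transWT array and dimmest on the emf2 array, but most of their signals were near background. Above the floor were 3 of the 4 in transWT, 1 in rescued emf2, and 0 in both emf2 and WT. Among all 22746 probe sets other than controls, 14.2% were brightest in transWT and dimmest in emf2, and among the 5752 whose brightest signal lay between the floor and 4 times the floor 12% were. The 4 genes were chosen with earlier results of these data known, so nothing is read from their shared order.

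DFR, the committing step, had a signal of 92.7 in rescued emf2, 23.9 in emf2, 310 in transWT and 85.6 in WT. The transWT array stood alone well above the floor, rescued emf2 and WT lay on either side of it within a few units, and emf2 was far below it. By rank, 64.1% of probe sets were dimmer than DFR on the transWT array, against 42% in rescued emf2, 24% in emf2 and 38.1% in WT.

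UF3GT, the xylosyltransferase, had a signal of 37.0 in rescued emf2, 14.4 in emf2, 140 in transWT and 42.7 in WT. UGT75C1, the 5-glucosyltransferase, had a signal of 20.9 in rescued emf2, 2.90 in emf2, 115 in transWT and 20.4 in WT. For both glycosyltransferases the transWT array was the only one above the floor, rescued emf2 and WT were close to each other, and emf2 was the dimmest. On the emf2 array 18.1% of probe sets were dimmer than UF3GT and 7.5% dimmer than UGT75C1.

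5MAT, the malonyltransferase that acts after UGT75C1, had a signal of 30.4 in rescued emf2, 17.5 in emf2, 45.9 in transWT and 41.8 in WT. All of these are below the floor, so no ratio was taken for it. Its transWT and WT signals lay close together, each with 29% of probe sets dimmer, unlike those of the other 3 genes.

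**Figure D1:**
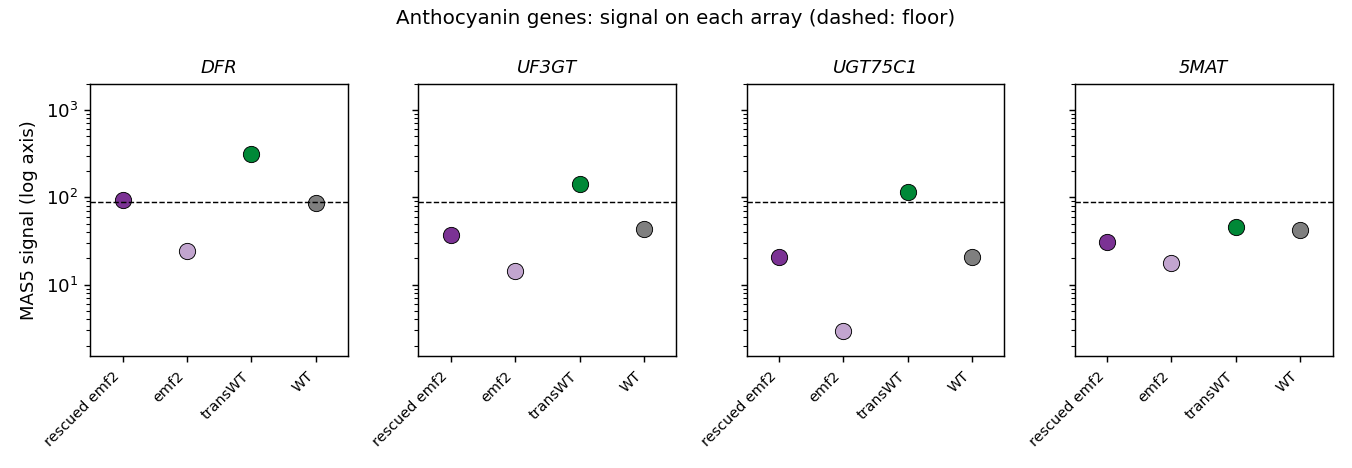
MAS5 signal (vertical, log axis) of DFR, UF3GT, UGT75C1 and 5MAT on each of the 4 arrays, 1 point per array; the dashed line is the floor at 87.6. The transWT point is the highest and the emf2 point the lowest in every panel, and only 4 of the 16 points are above the floor.

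To see what the transgene line and its hygromycin plates changed in a wild-type background, transWT was set over WT. DFR was at least 3.54-fold higher in transWT, against a WT signal just under the floor. UF3GT was at least 1.60-fold higher and UGT75C1 at least 1.31-fold higher. These are lower bounds, the transWT signal over the floor, since the WT signals of both lay below it. So 1 of the 3 genes that could be tested passed 2-fold, against a background of 3.88% higher and 5.32% lower among 14620 probe sets. Of probe sets whose brighter array lay between the floor and 4 times the floor, 2.32% were 2-fold higher. All 3 passed the floor through the transWT array alone, so these ratios could only be positive, and their direction supports nothing. With the floor at the 25th percentile (a signal of 30.7) all 3 passed 2-fold, and with it at the 60th percentile (259) none did.

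In the mutant background the matching contrast is rescued emf2 over emf2. DFR was the only 1 of the 4 with a signal above the floor, 92.7 in rescued emf2 against 23.9 in emf2, which gives a bound of at least 1.06-fold. UF3GT, UGT75C1 and 5MAT were below the floor on both arrays, each with the higher signal in rescued emf2. None of the 4 passed 2-fold, against a background of 5.85% higher and 4.97% lower among 14122 probe sets. With the floor at the 25th percentile DFR passed 2-fold here, at a log2 ratio of 1.59. Whether the transgene's effect on these genes differed between the wild type and the mutant was not tested.

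The mutant itself was compared in emf2 over WT, and none of the 4 could be tested there. Their signals were 23.9 in emf2 against 85.6 in WT for DFR, 14.4 against 42.7 for UF3GT, 2.90 against 20.4 for UGT75C1 and 17.5 against 41.8 for 5MAT. Each is lower in emf2, and all of these values lie below the floor, where ratios of MAS5 signals are noisy. The background in this comparison was 7.34% higher and 11.1% lower among 14653 probe sets.

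Both transgenic lines were compared in rescued emf2 over transWT. DFR was 3.35-fold lower in rescued emf2, and this is the only ratio of the 4 genes with both arrays above the floor. UF3GT was at least 1.60-fold lower and UGT75C1 at least 1.31-fold lower. Here 1 of 3 tested genes passed 2-fold, against a background of 2.99% lower and 2.26% higher among 14250 probe sets. UF3GT and UGT75C1 passed the floor through transWT alone, so their bounds could only be negative. The count was 3 at the 25th percentile floor and 0 at the 60th, where DFR had a log2 ratio of -0.26. This comparison shares the transWT array with transWT over WT, so a high reading on that array alone would give both differences. Between rescued emf2 and WT, DFR was at least 1.06-fold higher and the other 3 genes were below the floor on both arrays (background 5.91% higher and 9.9% lower among 14593 probe sets).

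**Figure D2:**
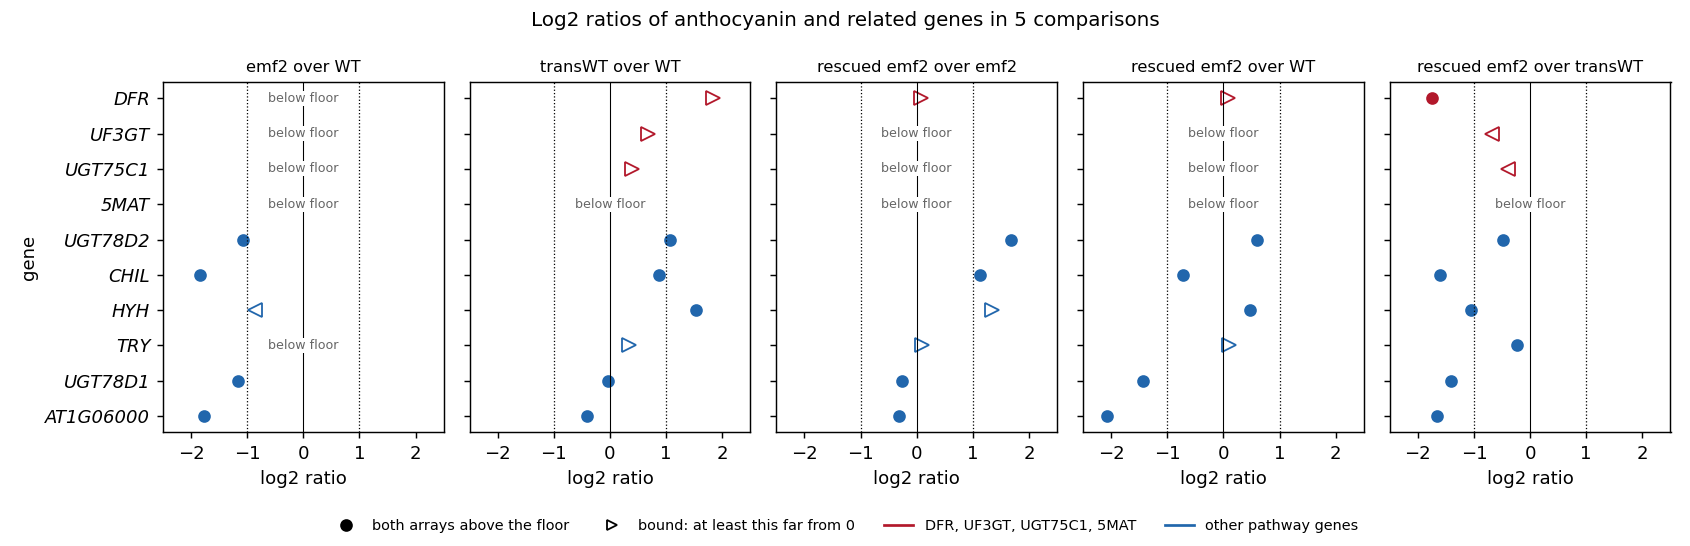
Log2 ratios (horizontal) of the 4 anthocyanin genes (red) and 6 other pathway genes (blue) in 5 comparisons of single arrays; filled points have both arrays above the floor, open triangles are bounds that point away from 0, and dotted lines mark 2-fold. DFR is the only red gene past 2-fold, at 1.82 or more in transWT over WT and at -1.74 in rescued emf2 over transWT.

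An additive fit over all 4 arrays, with terms for background and transgene, put a size on these differences. It used log2(signal + 100), which understates changes of dim genes, and left 1 residual degree of freedom. That degree of freedom holds the departure of the 4 single arrays from additivity. The intervals of the fit thus do not measure variation between replicates, of which there were none. By limma, DFR had a transgene effect of 0.89 on that log2 scale (95% interval 0.37 to 1.41; adjusted p = 0.123) and was higher with the transgene in both pairs. Its effect of the emf2 background was -0.84 (95% interval -1.36 to -0.32; adjusted p = 0.12), lower in both pairs. For UF3GT the transgene effect was 0.51 (adjusted p = 0.289, limma) and for UGT75C1 0.54 (adjusted p = 0.298, limma), both with intervals that include 0. The fit made 0 calls among the 3 genes tested for either term, with 1 of 3 at an unadjusted p under 0.05 for the transgene and 2 of 3 for background (19% and 24.2% of all 15111 probe sets). UF3GT and UGT75C1 entered the fit through a high transWT signal, which favours a positive transgene and a negative background effect. DFR was above the floor on the transgenic arrays alone, which favours a positive transgene effect. So nothing is read from these counts, or from the direction of the transgene effect of DFR. Over all probe sets 0.338% were called higher and 0.113% lower with the transgene, and 0.00662% higher and 0% lower in the emf2 background. Transgene, hygromycin and the brighter control probe sets went together on the same arrays and cannot be told apart.

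The rest of the flavonoid pathway was read from lists of 52 genes, of which 12 have a single-gene probe set, the 4 above included, and 9 were above the floor on at least 1 array. LDOX, the step after DFR, chalcone synthase and the PAP1, PAP2, TT8 and TTG1 regulators are among the 40 not analysed here. None of 8 phenylpropanoid and 9 jasmonate genes listed was matched to a single-gene probe set, and they were not analysed here.

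UGT78D2, which adds the 3-linked glucose that UF3GT then extends, was above the floor on every array. Its signal was 638 in rescued emf2, 199.5 in emf2, 887 in transWT and 422 in WT, so the transgenic array was brighter than its partner in both backgrounds. Rescued emf2 exceeded emf2 by 3.20-fold and transWT exceeded WT by 2.101-fold, and emf2 was 2.12-fold lower than WT. The last of these was within 2-fold after quantile normalization (log2 ratio -0.97), median scaling (-0.87), the 60th percentile floor (-0.71) and a pseudocount of 50 (-0.92). With that pseudocount transWT over WT was within 2-fold too (0.99).

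HYH, a bZIP relative of the light-signalling factor HY5, had a signal of 222 in rescued emf2, 39.6 in emf2, 460 in transWT and 159 in WT. Rescued emf2 exceeded emf2 by at least 2.54-fold, and transWT exceeded WT by 2.89-fold. Only its emf2 signal was below the floor, at least 1.82-fold under WT. It was 2.07-fold lower in rescued emf2 than in transWT, and within 2-fold after quantile normalization (-0.99), median scaling (-0.95) and cyclic loess (-0.94). A pseudocount of 50 (-0.90) and the 60th percentile floor (-0.83) also left it within 2-fold. At that floor HYH in transWT over WT was within 2-fold too (0.83).

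CHIL, a chalcone isomerase-like protein that aids the first steps of flavonoid synthesis, had a signal of 242 in rescued emf2, 111 in emf2, 731 in transWT and 399 in WT. Rescued emf2 exceeded emf2 by 2.18-fold and transWT exceeded WT by 1.83-fold, and emf2 was 3.60-fold lower than WT. The ratio of transWT over WT passed 2-fold with median scaling (1.03 on the log2 scale) and barely with cyclic loess. At the 60th percentile floor emf2 over WT was within 2-fold (-0.63), and with a pseudocount of 50 rescued emf2 over emf2 was (0.86). CHIL, UGT78D2 and HYH thus had the order of the anthocyanin genes, brightest in transWT and dimmest in emf2. They are 3 of the 6 other pathway genes above the floor on at least 1 array, where 13.3% of all such probe sets have this order. The lists were also chosen with earlier results of these data known, so nothing is read from this count.

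Flavonols share precursors with anthocyanins, and 2 of the 7 flavonol genes listed were above the floor. UGT78D1, which adds rhamnose to flavonols, had a signal of 127 in rescued emf2, 153.5 in emf2, 337 in transWT and 343.5 in WT. AT1G06000, placed on the flavonol list by its locus, had 132 in rescued emf2, 163 in emf2, 418 in transWT and 555 in WT. For both, the emf2-background arrays were dimmer than the wild-type ones, and each transgenic array was slightly dimmer than its partner at the main scaling. For UGT78D1 transWT was slightly brighter than WT after quantile normalization, median scaling and cyclic loess (log2 ratios 0.10, 0.13 and 0.12). UGT78D1 and AT1G06000 were thus lower in emf2 than in WT, as CHIL and UGT78D2 were. Whether they differ from the anthocyanin genes was not tested. UGT78D1 was 2.24-fold lower and AT1G06000 3.40-fold lower in emf2 than in WT, and were 2.70-fold and 4.21-fold under WT in rescued emf2. Against emf2, rescued emf2 was within 2-fold for both (log2 ratios -0.27 and -0.31), as was transWT against WT (-0.03 and -0.41). In emf2 over WT, UGT78D1 was within 2-fold with median scaling (-0.95), a pseudocount of 50 (-0.95) and the 60th percentile floor (-0.41). At that floor it was within 2-fold in rescued emf2 over WT too (-0.41).

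Among the remaining measured genes TRY, a small MYB protein that limits trichome formation, had 93.8 in rescued emf2, 51.7 in emf2, 110 in transWT and 17.8 in WT. Both transgenic arrays were just above the floor and the other arrays below it. UGT78D3, a flavonol arabinosyltransferase, and BAN, the anthocyanidin reductase of the seed coat, were below the floor everywhere, with highest signals of 9.4 and 21.2.

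**Figure D3:**
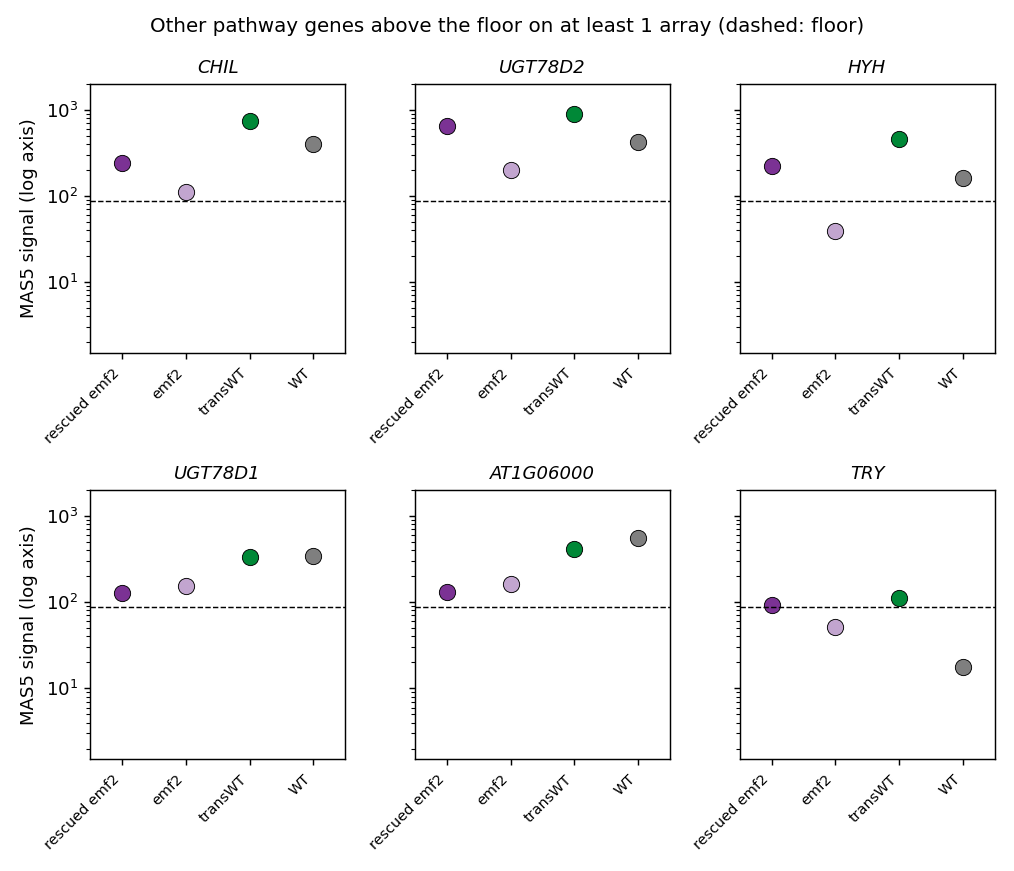
MAS5 signal (vertical, log axis) on each of the 4 arrays for the 6 other pathway genes above the floor (dashed line, 87.6) on at least 1 array, 1 point per array. CHIL, UGT78D2 and HYH are highest in transWT and lowest in emf2, whereas UGT78D1 and AT1G06000 are highest in WT and lowest in rescued emf2.

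Of the 12 measured pathway genes, 4 of 5 tested were at least 2-fold lower in emf2 than in WT and 0 higher. In transWT over WT 3 of 9 were higher and 0 lower, and in rescued emf2 over emf2 3 of 7 were higher and 0 lower. For rescued emf2 over WT the counts were 0 of 7 higher and 2 lower, and for rescued emf2 over transWT 0 of 9 higher and 5 lower. The share of all probe sets at least 2-fold lower was 11.1% in emf2 over WT, 9.9% in rescued emf2 over WT and 2.99% in rescued emf2 over transWT. The share higher was 3.88% in transWT over WT and 5.85% in rescued emf2 over emf2. A gene above the floor on just 1 array of a pair could differ in 1 direction only, and such genes are among those counted. By limma no pathway gene passed an adjusted p of 0.05 for the transgene or the background (0 of 9 each; 5 and 7 at an unadjusted p under 0.05, where 19% and 24.2% of all probe sets were). The nearest was HYH for the transgene, with an effect of 1.16 (95% interval 0.74 to 1.58; adjusted p = 0.0667).

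**Figure D4:**
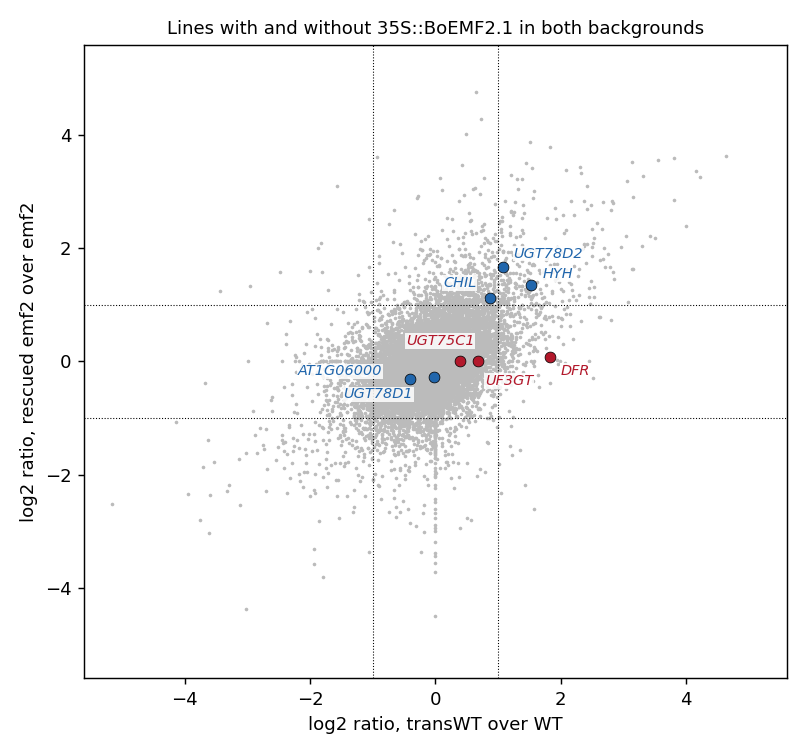
Log2 ratio of rescued emf2 over emf2 (vertical) against that of transWT over WT (horizontal) for 15111 probe sets above the floor on at least 1 array (grey), with DFR, UF3GT and UGT75C1 in red and 5 other pathway genes in blue; dotted lines mark 2-fold. UGT78D2 and HYH are past 2-fold on both axes, whereas DFR is past it only on the horizontal axis; UF3GT and UGT75C1 sit at 0 vertically because both arrays there were below the floor.

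In 3 of the comparisons all green tissue markers had signals that differed in the same direction as those of the anthocyanin genes. Most of the anthocyanin gene signals were below the floor, so little is read from this. Their summed signal over 7 genes was 102501 in rescued emf2, 48711 in emf2, 111626 in transWT and 83276 in WT, with no marker at 0. All 7 had the higher signal in transWT than in WT, 1 of them past 2-fold (LHCB4.3, a light-harvesting gene, 4.73-fold). All 7 were higher in rescued emf2 than in emf2, 5 of them at least 2-fold, and all 7 were lower in emf2 than in WT, 3 of them at least 2-fold. Some of these differences were close to none: LHCB4.3 had 346.4 in emf2 against 347.1 in WT, and PRK was 1.01-fold higher in transWT than in WT. In rescued emf2 over transWT, where DFR was lower, 1 of 7 green markers was at least 2-fold lower, with a list median log2 ratio of -0.27. Set over WT, rescued emf2 had 1 of 7 past 2-fold, upwards, and a list median of 0.45, where DFR was within 2-fold. The summed signal of the 3 root markers was 18754 in rescued emf2, 18206 in emf2, 18282 in transWT and 15775 in WT, most of it from PYK10, a root beta-glucosidase within 2-fold in these comparisons. The root hair expansins EXPA7 and EXPA18 were 2.67-fold and 4.19-fold brighter in emf2 than in WT, and 2.09-fold and 2.97-fold dimmer in rescued emf2 when set against emf2. Both lay within 2-fold in the other 3 comparisons. In whole seedlings fewer cells of a type and less RNA per cell cannot be told apart, and the part of tissue makeup in the anthocyanin signals was not tested.

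The glycosyltransferase family as a whole was used as a comparison, since UF3GT and UGT75C1 belong to it. Of 47 other UGT genes with a probe set, 2 of 29 tested were at least 2-fold higher in transWT than in WT and 3 lower. The median log2 ratio of the 29 was -0.03. Over all probe sets tested 3.88% were higher and 5.32% lower. The 47 include UGT78D2, which is also on the pathway lists. The highest were UGT87A2 (2.37-fold), UGT78D2 and UGT73B5 (1.36-fold), and the lowest UGT76E11 (2.51-fold lower), UGT85A5 (at least 2.20-fold lower) and UGT80B1 (2.20-fold lower). Of 30 UGT genes tested in rescued emf2 over emf2, 2 were higher and 0 lower, against 5.85% higher and 4.97% lower over all probe sets tested. UGT78D2 led, followed by UGT76C1, a cytokinin glucosyltransferase, at least 2.25-fold higher, and UGT73D1, at least 1.82-fold higher. At the low end were UGT71C3 (1.91-fold lower), UGT85A5 (at least 1.71-fold lower) and UGT71C1 (1.69-fold lower). UGT78D2 was the only gene among the 3 highest in both comparisons.

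The named genes most like DFR were found by the root mean square difference of log2 signals, floored and centred on each gene's own mean, over 4 arrays and 8090 genes. They were CHX20 (difference 0.19), AT2G15020 (0.21), petG (0.21), AT2G05910 (0.22) and BHLH101 (0.22). CHX20, a cation exchanger of guard cells, had 101.5 in rescued emf2, 45.4 in emf2, 248 in transWT and 98.4 in WT. BHLH101, a regulator of iron uptake, had 43.3 in rescued emf2, 1.2 in emf2, 429 in transWT and 108 in WT. Like DFR, both stood out on the transWT array alone. CHX20, BHLH101 and AT2G15020 were dimmest in emf2, as DFR was. In contrast, petG was dimmest in rescued emf2 (39.1 against 67.4 in emf2) and AT2G05910 in WT (69.4 against 82 in emf2), all values below the floor. UF3GT lay at 0.49 and UGT75C1 at 0.61 from DFR. The profiles of UF3GT and UGT75C1 hold little detail, since 3 of their 4 arrays sit at the floor, and 123 of 8093 named genes were above it on the transWT array alone. The profile of DFR holds little more. Its rescued emf2 signal of 92.7 was just above the floor, and its emf2 and WT signals were below it. Nearest to UF3GT were AT1G64450, AT5G04000, AT2G44260, AT1G78260 and AT2G28710 (0.00 to 0.02), and nearest to UGT75C1 were AT5G38870, AT4G26830, AT2G22270, AT3G28960 and AT1G63530 (0.00 to 0.01).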

How the data were processed

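Total RNA from whole seedlings (10 µg per sample) was labelled as cRNA for 1 array in each group, as the labels' protocols describe. The deposited values are intensity, a linear MAS5 signal for 22810 probe sets, per the submitters' processing notes; its version and settings are not given in the sources at hand. By calculation the 2%-trimmed mean was 500.05 on every array. Arrays were rescaled to that mean, 64 control probe sets left out, and log2 ratios taken between single arrays after flooring at 87.6. Where just 1 of both arrays exceeded the floor the ratio is a bound, and where neither did the gene was not tested. Differences were counted from 2-fold. The additive fit used limma 3.58.1 (lmFit, eBayes with trend, Benjamini-Hochberg adjustment) in R 4.3.3 on log2(signal + 100) of 15111 probe sets.

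Single-gene annotation covers 13513 probe sets; 503 list several genes and 8794 are not listed. Current names are from RefSeq (TAIR10.1, names only; 13286 of 13356 genes matched). Genes named are the 4 anthocyanin genes, measured members of 10 lists, the 5 nearest profiles and the 3 highest and lowest other UGT genes. Members and lists were chosen with earlier results of these data known. Alternatives were other scalings, floors, pseudocounts and thresholds, and for the fit other pseudocounts and scalings, no filter and no trend.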

Additional observations from a re-analysis of the deposited data

How the results depend on the processing

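The number of anthocyanin genes past 2-fold depended on the floor and the threshold, but not on the 4 scalings tried. In transWT over WT, 1 of the 4 was higher, against 3 at the 25th percentile floor. The count was 3 with unfloored signals and a pseudocount of 1, 3 with a pseudocount of 50, 2 at 1.5-fold and 0 at the 60th percentile floor. Both pseudocount runs left genes below 87.6 on both arrays untested, as all 4 were in emf2 over WT. For rescued emf2 over transWT 1 was lower, against 3, 3, 3, 2 and 0 under the same settings. Between rescued emf2 and emf2, 0 were higher, against 1 at the 25th percentile floor and 1 with a pseudocount of 1. In emf2 over WT, 0 were lower, against 1 at the 25th percentile floor. No log2 ratio of these genes changed sign under any alternative run. Most of these are bounds at the main floor, where which array exceeds it fixes the sign, so little is read from this. DFR in transWT over WT ranged from 0.26 to 1.86 and in rescued emf2 over transWT from -1.74 to -0.26.

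Of the 12 measured pathway genes, 4 were lower in emf2 than in WT (1 to 6 over all settings). The count was 2 with median scaling, 2 at 3-fold and 1 at the 60th percentile floor. In transWT over WT 3 were higher, against 6 at the 25th percentile floor, 6 with a pseudocount of 1, 5 with a pseudocount of 50, 5 at 1.5-fold, 1 at 3-fold and 1 at the 60th percentile floor. Between rescued emf2 and emf2 3 were higher (1 to 4), and between rescued emf2 and WT 2 were lower (1 to 3). Each was 1 at 3-fold and 1 at the 60th percentile floor. Between rescued emf2 and WT 0 were higher, against 1 at the 25th percentile floor, with either pseudocount and at 1.5-fold. Between rescued emf2 and transWT 5 were lower (1 to 7), against 3 at 3-fold and 1 at the 60th percentile floor. The cause was not tested, except that a higher floor leaves fewer genes to test and shrinks the ratios of dim ones. In emf2 over WT the 60th percentile floor still tested CHIL, UGT78D1 and UGT78D2, all within 2-fold. Single values of the other pathway genes were added after seeing the data.

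The additive fit called none of DFR, UF3GT and UGT75C1 under its 9 settings, nor 5MAT with no filter, the only one to keep it; the adjusted p of DFR ranged from 0.0691 to 0.23 for the transgene and from 0.0921 to 0.222 for background. Median scaling shifted the median log2 ratio of all probe sets by 0.19 in emf2 over WT, 0.14 in transWT over WT and 0.23 in rescued emf2 over WT. The share of differences that were higher was then 58% against 39.7% in emf2 over WT, 60.3% against 42.2% in transWT over WT, 62.7% against 37.4% in rescued emf2 over WT and 56.3% against 43% in rescued emf2 over transWT; for rescued emf2 over WT it was 49.3% after quantile normalization, which shifted the median by 0.10, and 49.7% after cyclic loess. Near-background signals limit what is shown of UF3GT, UGT75C1 and 5MAT.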
